A study of Mus musculus with 2 samples.

Results

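The fed livers of mice without CREBH were set against those of wild-type mice on a single array, and every named gene that gave a signal in both pools is described by its ratio. CREBH is the transcription factor encoded by Creb3l3. The array probed 20283 named genes, and 11377 of them were measured, meaning that the probe was well above background in the channel of each pool. One channel (Cy3) held pooled total liver RNA from C57B6J mice of the wild type (WT) that were fed ad lib, and the other (Cy5) that of CREBH knockout (KO) mice, described as CREBH null on a C57B6J background and also fed ad lib. A further array carried the same genotypes after a fast of 24 h, again with WT in Cy3 and KO in Cy5. How many mice entered a pool, their age and sex, and how the null allele was made are not stated in the sources used here.

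With 1 pool per genotype, 1 array and no dye swap, the difference between the genotypes has no replicate, and nothing below is a test. A gene was called higher or lower when its ratio of KO over WT was at least 2-fold, that is at least 1 or at most -1 on the log2 scale. Signals are normalized log2 values of 1 probe, so they compare the pools and not different genes. Of the gene spots, 39.9% in the WT channel and 42.9% in the KO channel were well above background. The 207 measured probes printed 9 or 10 times had a median SD of 0.09 between their spots on the log2 scale, which is spread between spots only and does not include variation between mice, pools or labelling reactions. In bulk liver RNA, fewer cells of a type and less RNA per cell cannot be told apart. Hepatocyte markers, among them Alb and Apoa1, were measured for 16 of 16 genes, with a summed KO over WT signal of 1.026 and a median log2 ratio of 0.01.

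CREBH sits in the membrane of the endoplasmic reticulum in hepatocytes and enterocytes. On fasting or lipid and stress signals it moves to the Golgi apparatus, where the site-1 and site-2 proteases cut it, and the released fragment enters the nucleus. It is known as an activator of genes of triglyceride clearance and fasting metabolism, such as Apoa4, Apoc2 and Fgf21, often together with PPARα, the receptor for fatty acids that drives fatty acid oxidation. Its activation is known to be stronger in fasting than in the fed state.

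Of the 11377 measured genes, 18 had KO signals above the WT signal by 2-fold or more (0.158%) and 45 had KO signals below it by as much (0.396%), 63 in all (0.554%). Most genes lay close to equal signals, since 96.2% had log2 ratios within 0.5 of 0, and the SD over all measured genes was 0.24. The calls were spread over the whole range of signals, from Vnn1 at the dim end to Mup19 at the bright end. Of the 63 called genes, 44 belonged to at least 1 of the gene lists described below, 34 of them lower and 10 higher, and 19 to none. Just inside the threshold lay Mup19 (1.04), Mup5 (1.07), Rtn4 (-1.02) and Gbp4 (-1.03), and just outside it Lpin2 and Egfr (0.96 each), Psmb10 (-0.96) and Igfbp2 (-0.94).

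**Figure D1:**
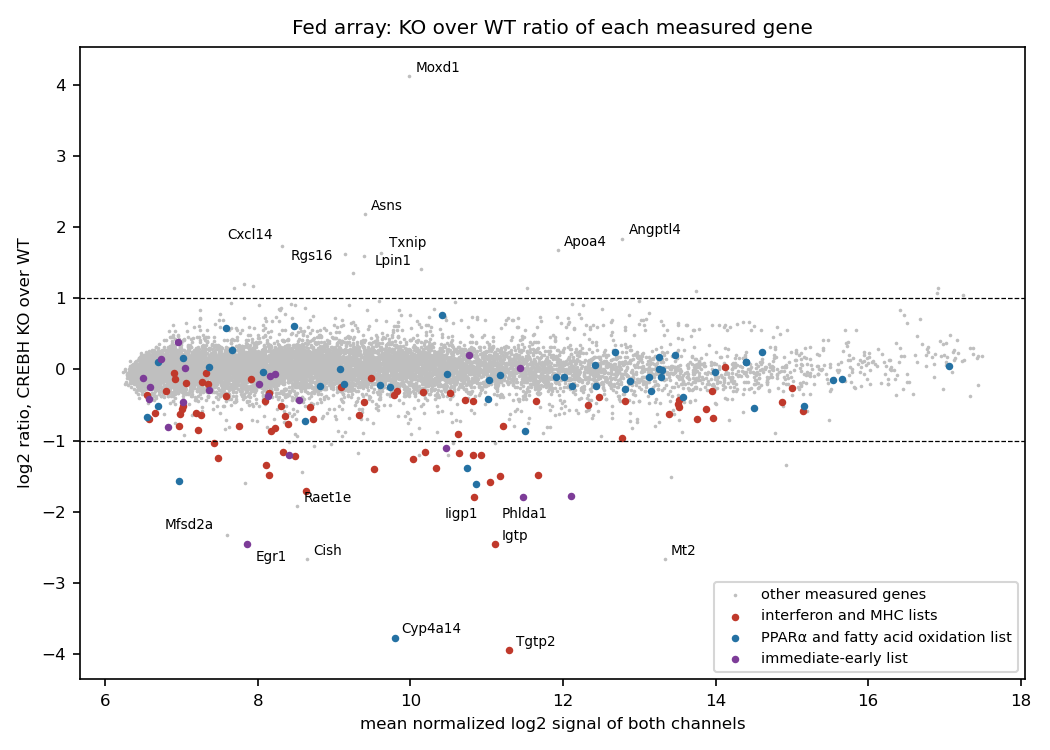
Log2 ratio of KO over WT (vertical) against the mean normalized log2 signal of both channels (horizontal) for each of the 11377 measured genes of the fed array, with dashed lines at 2-fold. Moxd1 at 4.13 and Tgtp2 at -3.95 are the ends, and the coloured interferon and MHC genes lie almost wholly below 0.

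The targeted gene came first as a check of the labels. Creb3l3, read by 1 probe (A_55_P2174987), had a signal of 14.00 in the WT pool and of 13.12 in the KO pool, a log2 ratio of -0.88 with a scanner error of 0.22. The KO pool was thus lower but under 2-fold, and the signal in it was far above background. Whether the probe lies in the part of the gene that the null allele lacks is not stated in the sources used here, so the remaining signal is no measure of the allele. The direction depended on the scaling: with the array rescaled to the median of its own spots instead of loess (called all-spot centring below) the ratio was 0.31, where the median of all measured genes was 0.78. On the fasted array the ratio was -2.07.

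The relatives of CREBH and the proteases that release it had near equal signals. Creb3, the founding member of the family, was at a log2 ratio of 0.01, Creb3l1 at -0.10 and Creb3l2 at -0.03. Mbtps1, the site-1 protease, was at 0.05 and Mbtps2, the site-2 protease, at -0.04. Creb3l4 was not well above background. Of the 20 coding genes nearest to Creb3l3 in the gene order, 10 on each side, 16 were measured and none was 2-fold apart, with ratios from -0.22 to 0.25.

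Genes that answer to interferon, joined from several lists, made up more of the lower genes than any other list used here. The lists of interferon-inducible GTPases, other interferon-stimulated genes, interferon-induced chemokines, MHC class II, and MHC class I with the immunoproteasome held 97 genes together, of which 91 were on the array and 78 measured. Of these 78 genes, 77 had ratios below 0, 20 were at least 2-fold lower (25.6%, against 0.396% of all measured genes) and none was higher by that much. They made up 44.4% of the 45 lower genes. The lists were chosen with earlier results of these data known, so these shares are descriptions and no test. The median log2 ratio of the 78 genes was -0.61 against 0.01 over all measured genes, and with all-spot centring it was 0.18 against 0.78.

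The GTPases held 10 of these 20 genes and the lowest single ratio. These proteins, the immunity-related GTPases and the guanylate-binding proteins, are switched on by interferon gamma and attack the membranes around microbes inside cells. Of 17 measured members all had ratios below 0 and 10 were at least 2-fold lower (58.8%, against 0.396% of all measured genes), with a median of -1.18, or -0.42 with all-spot centring. Their summed signal in the KO pool was 0.306 of that in the WT pool. Another 3 were not measured in both channels, since Tgtp1 and Gbp2b were well above background in the WT channel alone and Gbp8 in neither.

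The promoters of 3 lower GTPases are shown because elements through which interferons act lie side by side in them. Irgm2, which is not among the 10 lowest genes, was chosen after its values were seen. Interferon-stimulated response elements (ISRE) were searched as GAAA, any 2 bases and GAAA again, and gamma-activated sites (GAS) as TTCNNNGAA, on both strands. The stretches are the 150 bases before the transcription start from RefSeq on GRCm38.p6, 5′ to 3′ in the direction of the gene, with the GAS and then the ISRE match in capitals. They lie at chr11:49064213-49064362 on the minus strand (Tgtp2), chr11:58199406-58199555 on the plus strand (Igtp) and chr11:58214827-58214976 on the plus strand (Irgm2).
Tgtp2: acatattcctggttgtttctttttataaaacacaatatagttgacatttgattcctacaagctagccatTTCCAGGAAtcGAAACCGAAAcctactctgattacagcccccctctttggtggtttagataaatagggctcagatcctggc
Igtp: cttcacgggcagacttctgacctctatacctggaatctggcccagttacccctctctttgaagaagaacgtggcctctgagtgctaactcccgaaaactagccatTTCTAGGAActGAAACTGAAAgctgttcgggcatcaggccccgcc
Irgm2: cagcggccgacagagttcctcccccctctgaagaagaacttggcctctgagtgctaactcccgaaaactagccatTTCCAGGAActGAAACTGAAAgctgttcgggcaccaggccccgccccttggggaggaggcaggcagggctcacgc

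In each of the 3 stretches a GAS match is followed after 2 bases by an ISRE match. Counted from the start site, the ISRE match of Tgtp2 begins at -70 and its GAS match at -81. In Igtp the matches begin at -34 and -45, and in Irgm2 at -64 and -75. Of all 32851 RefSeq promoter windows of 300 bases (250 before and 50 after the start), 3.44% held an ISRE match, 8.30% a GAS match and 0.454% both. Among the 10 lower GTPases, 6 had a window in the table, and 5 of their 7 windows held an ISRE match and 3 a GAS match. Among all 20 lower interferon and MHC genes, 12 had a window, and 5 of 13 windows held an ISRE match and 3 a GAS match. All of these matches lay in the GTPases, and the windows of the other lower genes of these lists held neither. Over all 17 measured GTPases, 9 had a window, and 8 of 10 windows held an ISRE match and 5 a GAS match. The 3 windows of members under 2-fold held an ISRE match too, and a match describes letters and not a bound factor.

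Tgtp2, a T-cell specific GTPase, had a signal of 13.28 in the WT pool and of 9.32 in the KO pool, which is 15.5-fold lower and the lowest ratio of all measured genes. Its twin Tgtp1 can share the probe. Igtp (Irgm3), read by 9 spots, was at 12.34 against 9.88, 5.51-fold lower. The spots of Igtp ranged from -2.53 to -2.39 with an SD of 0.04, a spread of the spots that does not include variation between mice or pools.

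Iigp1, which loads onto the vacuoles of Toxoplasma, had signals of 11.73 and 9.93 in the WT and KO pools, 3.49-fold lower, and its other measured probe was at -1.62. The regulatory members Irgm2 (11.03 and 9.64, log2 -1.39) and Irgm1 (11.53 and 10.32, -1.21) were lower by less. The other measured probe of Irgm1 was at -0.65, so this gene passed 2-fold by its brighter probe alone. Ifi47, a further immunity-related GTPase, had a ratio of -1.18.

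Among the giant and guanylate-binding GTPases, Gvin1 had a ratio of -1.40, Gbp3 of -1.35, Gbp6 of -1.25 and Gbp4 of -1.03. The other measured probe of Gbp6 was at -0.87, under 2-fold. The KO signals of Gbp6 (6.85) and Gbp4 (6.91) were dim, near the lowest signal of 6.08 among probes well above background in that channel, and their scanner-processed ratios were -2.25 and -1.67. The 7 members that stayed under 2-fold ranged from -0.70 for F830016B08Rik to -0.19 for Gbp10. Picked after their values were seen, scanner-processed ratios of Gbp7 (-1.68 in place of -0.69) and Gbp5 (-1.85 in place of -0.61) were past 2-fold. Members of this family are much alike in sequence, and the signal of a probe may come from more than 1 of them.

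Other interferon-stimulated genes were lower as a group, but by less. All 33 measured members had ratios below 0, with a median of -0.46, which turned to 0.27 with all-spot centring (-0.51 relative to the median of all genes there). Their summed KO signal was 0.692 of the WT signal. Oasl1, an oligoadenylate synthetase-like protein, had signals of 10.67 in the WT pool and 9.41 in the KO pool (log2 -1.26). Zbp1, a sensor of Z-form nucleic acids, was at -1.22 and the chaperone Rtp4 at -1.16. Irf7, the master factor of the type I interferon loop, was at -0.86, under 2-fold, and the list ended at Trim30a with -0.05.

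Genes for antigen presentation by MHC class II formed the second block. Class II molecules show peptides to CD4+ T cells and are made by dendritic cells, macrophages and B cells, and by other cells under interferon gamma. Of 6 measured members 5 were at least 2-fold lower (83.3%, against 0.396% of all measured genes), and the median was -1.48, or -0.45 with all-spot centring. The summed signal was 14100 in the WT pool and 5060 in the KO pool, a ratio of 0.358. Their master regulator Ciita, as well as H2-DMb2, H2-Oa and H2-Ob, was not well above background in either channel.

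Cd74, the invariant chain, had signals of 11.83 in the WT pool and 10.25 in the KO pool (log2 -1.58). The chains of the class II molecules themselves were close to it, with H2-Eb1 at -1.50 (11.92 and 10.42), H2-Aa at -1.49 (8.89 and 7.40) and H2-Ab1 at -1.48 (12.42 and 10.94). Another probe of H2-Ab1 was at -1.59. H2-DMb1, part of the peptide loader H2-DM, was at -1.16 and its partner H2-DMa at -0.61. Cd74, H2-Eb1, H2-Aa and H2-Ab1 differed among themselves by less than the median scanner error of 0.21.

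The class I branch was lower by less. Of 19 measured genes for class I molecules and the immunoproteasome, 18 had ratios below 0 and 1, Psmb9, was 2-fold lower (5.26%, against 0.396% of all measured genes). The median was -0.50, and it was 0.57 with all-spot centring. The 3 catalytic subunits that interferon gamma brings into the proteasome were the lowest members, with Psmb9 at -1.20 (11.42 and 10.22), Psmb10 at -0.96 and Psmb8 at -0.91, followed by H2-Q1 at -0.85. H2-Q4 at 0.04 was the highest member.

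The cytokine itself and its signalling chain gave little signal or small ratios. Ifng was not well above background in either channel. Of 10 measured genes of the interferon gamma pathway none was 2-fold apart, and the median was -0.31, or 0.56 with all-spot centring. Irf1, the factor made first under interferon gamma, was at -0.71 and Nlrc5, the activator of class I genes, at -0.66. The feedback inhibitors Socs3 and Socs1 were at -0.37 and -0.35. Of the chemokines that interferon gamma induces, Cxcl9 had signals of 9.48 in the WT pool and 7.78 in the KO pool (log2 -1.71, other probe -1.24), Cxcl10 was at -0.80 and Ccl5 at -0.33.

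Markers of immune cells that could carry these genes had ratios under 2-fold, most of them below 0 for macrophages, lymphocytes and dendritic cells. Kupffer cell and macrophage markers were measured for 18 of 20 genes, 17 of them below 0 and none 2-fold apart, and their summed signal was 26200 in the WT pool and 20600 in the KO pool, a ratio of 0.786. The furthest from 0 were the scavenger receptor Marco (-0.91), Cd5l (-0.57), Csf1r (-0.47) and C1qa (-0.42), and Cd163 was not well above background. Lymphocyte and natural killer cell markers were measured for 8 of 21 genes, with a summed ratio of 0.877 and ratios from -0.33 to 0.21. Of their defining markers, Cd8a, Cd79a, Ms4a1 and Ncr1 were not well above background in either channel, and Cd2 was so in the WT channel alone. Dendritic cell markers were measured for 6 of 10 genes, 4 of them below 0, with a summed ratio of 1.020. Flt3, Xcr1 and Cd209a were not well above background, and Zbtb46 was so in the KO channel alone. The medians of macrophage, lymphocyte and dendritic markers were -0.24, -0.20 and -0.10, and with scanner-processed signals -0.40, -0.58 and -0.28. With all-spot centring they were 0.57, 0.23 and 0.37, against 0.78 over all measured genes. In the main normalization none of the measured markers of the 3 cell groups reached 2-fold. The part of these cells in the lower interferon and MHC signals was not tested.

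**Figure D2:**
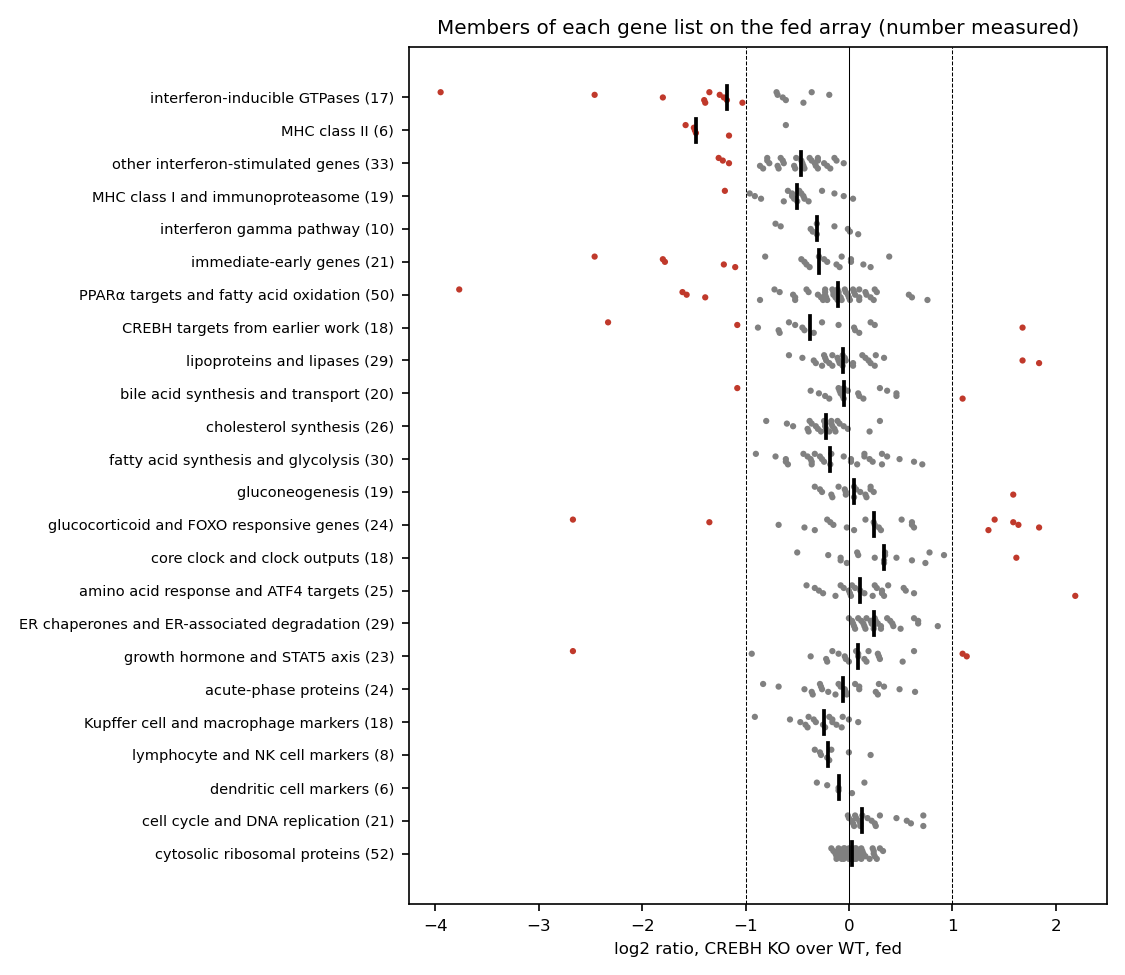
Log2 ratio of KO over WT of each measured member (points) of the gene lists on the fed array, with the list's median (bar), the number measured in brackets, members past 2-fold in red and dashed lines at 2-fold. The medians of MHC class II (-1.48) and of the interferon-inducible GTPases (-1.18) are the lowest, and most other medians lie within 0.5 of 0.

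Some fatty acid hydroxylases of the Cyp4a family were another group among the lower genes. They carry out omega-oxidation and are classic targets of PPARα. Cyp4a14 had a signal of 11.69 in the WT pool and of 7.92 in the KO pool, 13.6-fold lower. Cyp4a31 (11.67 and 10.06, log2 -1.61) and Cyp4a10 (11.44 and 10.05, -1.39) were lower by less. Cyp4a32 (-0.72), Cyp4a12a (-0.16) and Cyp4a12b (-0.10), named after their values were seen, stayed under 2-fold. The other probes of Cyp4a31 were at -0.67 and -0.28 and those of Cyp4a10 at -1.72 and -0.88, and near-identical copies in this family can share probes. Vnn1, a pantetheinase, was at -1.57, with a KO signal of 6.18 that was hardly above the dimmest measured signals and a scanner-processed ratio of -3.56.

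The rest of the PPARα list lay on both sides of 0. Of 50 measured members 4 were lower by 2-fold (8.0%, against 0.396% of all measured genes) and none higher (against 0.158%). Above 0 lay 17 (34.0%, against 53.1%), and the median was -0.11, or 0.87 with all-spot centring. Acot1, a cytosolic acyl-CoA thioesterase, was higher at 0.76, under 2-fold, and Decr2, a peroxisomal reductase, at -0.86, both picked after their values were seen. Among genes picked after their values were seen, the carnitine palmitoyltransferase Cpt1a was at -0.08 and Ppara itself at 0.06. Ppard, which encodes the related receptor PPARδ, was lower (9.48 and 8.43, log2 -1.05).

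Genes that earlier work names as CREBH targets split in both directions. Of 18 measured genes, 2 were 2-fold lower (11.1%, against 0.396% of all measured genes) and 1 was 2-fold higher (5.56%, against 0.158%), and the median was -0.38, or 0.74 with all-spot centring. Mfsd2a, which carries lysophosphatidylcholine into cells, had a signal of 8.76 in the WT pool and of 6.43 in the KO pool, 5.02-fold lower, with a scanner-processed log2 ratio of -3.83 in place of -2.33. Cyp7a1, whose enzyme limits the rate of bile acid synthesis, was at 9.28 and 8.19, 2.12-fold lower. Fabp2 (-0.68), Cidec (-0.67), Apoa1 (-0.58) and the hormone gene Fgf21 (-0.52), all picked after their values were seen, were under 2-fold.

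Apoa4 was the CREBH target that was 2-fold higher. This apolipoprotein of chylomicrons and very low density lipoprotein had a signal of 11.09 in the WT pool and of 12.77 in the KO pool, 3.21-fold higher. On the fasted array its ratio was -4.31. Angptl4, a secreted inhibitor of lipoprotein lipase, was likewise higher in the fed KO pool (11.86 and 13.70, 3.59-fold) and at 0.28 in the fasted. Other lipoprotein genes were near 0, with a median of -0.06 over 29 genes, or 1.03 with all-spot centring.

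No gene of the list of lipogenic and glycolytic genes or of the cholesterol synthesis list was 2-fold apart. Of 30 genes for fatty acid synthesis and glycolysis 13 lay above 0 (43.3%, against 53.1% of all measured genes), with G6pdx, which makes NADPH, at -0.90 and the desaturase Scd1 at -0.71. Of 26 cholesterol synthesis genes 24 lay below 0 with a median of -0.22, or 0.73 with all-spot centring. Hmgcs1 (-0.80) and Sqle (-0.60) were the lowest. In bile acid metabolism Cyp7b1, the hydroxylase of the acidic pathway, was higher (13.20 and 14.30, 2.14-fold) while Cyp7a1 of the classic pathway was lower, and the other 18 measured genes ranged from -0.37 for Akr1d1 to 0.46 for Slco1a1 and Slco1b2.

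Immediate-early genes, which answer within minutes to growth factors and stress, were a further group among the lower genes. Of 21 measured members 5 were at least 2-fold lower (23.8%, against 0.396% of all measured genes) and none higher, and the median was -0.29, or 0.20 with all-spot centring. Egr1, a zinc finger factor, had a signal of 9.09 in the WT pool and of 6.63 in the KO pool, 5.49-fold lower, with a dim KO signal and a scanner-processed log2 ratio of -3.62 in place of -2.46. Phlda1 was at 12.38 and 10.57, 3.49-fold lower, and Gadd45g, a growth arrest gene, at 12.99 and 11.21, 3.44-fold lower. The orphan receptor Nr4a1 (-1.21) and the AP-1 subunit Jun (-1.10) also passed 2-fold, and Btg2, picked after its value was seen, was at -0.81. Fos, the partner of Jun, was well above background in the WT channel alone and its KO signal was lower by at least 2.19-fold. On the fasted array Gadd45g was at -1.29, Phlda1 at -0.93, Egr1 at -0.21, Nr4a1 at -0.11 and Jun at 0.63.

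Mt1 and Mt2, metallothioneins that bind zinc and copper, were lower in the KO pool, whereas Mt3, picked after its value was seen, was at 0.11. Mt2 had a median spot signal before normalization of 12238 in the WT channel and of 5711 in the KO channel, whose spots were brighter in general (median 83.0 against 27.0). After normalization Mt2 was 6.36-fold lower in KO (log2 -2.67). Mt1 had normalized signals of 15.60 in the WT pool and 14.25 in the KO pool, 2.54-fold lower. These genes are neighbours in the gene order. The other 7 measured genes of the list were under 2-fold, among them Slc39a4, a zinc importer, at -0.61, the exporter Slc30a1 at -0.23 and, picked after its value was seen, Mtf1, the factor that senses zinc, at 0.15.

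The promoter of Mt2 is shown because matches to a loose pattern for metal response elements (MRE), through which zinc acts, are repeated in it. A match describes letters and not a working element. The stretch is chr8:94172368-94172617 on the plus strand from RefSeq on GRCm38.p6, the 250 bases before the start, with matches to TGCNCNC on either strand in capitals.
Mt2: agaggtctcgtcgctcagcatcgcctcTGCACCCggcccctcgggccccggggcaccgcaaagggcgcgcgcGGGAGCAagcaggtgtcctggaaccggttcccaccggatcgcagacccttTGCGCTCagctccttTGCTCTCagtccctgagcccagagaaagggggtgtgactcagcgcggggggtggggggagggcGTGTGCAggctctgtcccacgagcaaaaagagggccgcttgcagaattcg
The stretch of 250 bases holds 5 matches, and the full window of Mt2, with 50 bases after the start, holds 6. Such a short motif occurs in 51.0% of all RefSeq promoter windows of 300 bases, and 5 or more matches occur in 0.697% of them.

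The glucocorticoid and FOXO list, to which the metallothioneins also belong, held 5 of the 18 higher genes. These genes are known to answer to corticosterone or to low insulin. Of 24 measured members 5 were 2-fold higher (20.8%, against 0.158% of all measured genes) and 2, Mt2 and Mt1, were 2-fold lower (8.33%, against 0.396%). Above 0 lay 15 of them (62.5%, against 53.1% of all measured genes), with a median of 0.24, which was 1.23 with all-spot centring. Txnip, a thioredoxin inhibitor that is held down by insulin, had signals of 8.79 in the WT pool and 10.43 in the KO pool (3.11-fold), and its other probe was at 0.82. Lpin1, a phosphatidic acid phosphatase, was at 8.60 and 10.19 (3.01-fold). Depp1, a FOXO target, was at 9.44 and 10.85 (2.65-fold) and the zinc finger gene Zbtb16 at 8.57 and 9.92 (2.55-fold), Angptl4 being the remaining one.

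Clock genes leaned the same way, with 13 of 18 measured members above 0 (72.2%, against 53.1% of all measured genes) and a median of 0.34, or 1.25 with all-spot centring. Rgs16, a regulator of G protein signalling that cycles with feeding, had a signal of 8.33 in the WT pool and of 9.95 in the KO pool, 3.07-fold higher. No other member passed 2-fold, with Usp2 at 0.92, Nr1d1 at 0.78 and Dbp at 0.74. Arntl, an activator of the clock that was named as the lowest member after its value was seen, was at -0.50. The sources used here do not state the hour at which the livers were taken.

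In the growth hormone and STAT5 list Cish and Bcl6 lay on opposite sides of 0. Growth hormone acts on hepatocytes through STAT5, which switches on the feedback inhibitor Cish and holds down Bcl6. Cish had a signal of 9.98 in the WT pool and of 7.31 in the KO pool, 6.37-fold lower, with a scanner-processed log2 ratio of -3.47 in place of -2.67. Bcl6, a repressor that opposes STAT5, had 10.96 in the WT pool and 12.10 in the KO pool, 2.20-fold higher. Cyp7b1, which is higher in male liver, belongs to this list too. The other 20 measured members were under 2-fold, from Igfbp2 at -0.94 to Igfbp1 at 0.63, with a median of 0.09 over the whole list, or 1.18 with all-spot centring. Among them, picked after their values were seen, Serpina1e was at 0.30, Hsd3b5 at 0.19, Socs2 at 0.17, Igf1 at 0.09 and Igfals at -0.10. Whether the activity of STAT5 differed between the pools was not tested.

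A pair of matches to gamma-activated sites, to which STAT5 can bind, stands at the start of Cish. The 30 bases at chr9:107296657-107296686 on the plus strand (RefSeq, GRCm38.p6) hold 2 matches to TTCNNNGAA, in capitals, the first beginning at the first transcribed base.
Cish: ttTTCCTGGAAagTTCTTGGAAatctgtca
Of all promoter windows, 0.457% held at least 2 such matches. The pair does not set Cish apart from Bcl6, which was higher and whose windows held 3 and 1 matches. At least 1 match lay in 4 of 35 windows of the lower genes (11.4%) and in 4 of 15 of the higher genes (26.7%), against 8.30% of all windows. The 4 windows of the higher genes came from 3 genes and include both windows of Bcl6, so these shares rest on few genes.

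Major urinary proteins, pheromone carriers that growth hormone drives in male liver, were higher for Mup2 (log2 1.14, signals 16.35 and 17.49), Mup5 (1.07) and Mup19 (1.04). These signals were the brightest of the called genes. The members of this cluster are nearly identical in sequence, so their probes are not independent. Mup3 (-0.21) and Mup20 (-0.22), picked after their values were seen, lay below 0, though another probe of Mup20 was at 0.63. The scanner-processed ratios of Mup2 (0.99) and Mup19 (0.88) were under 2-fold.

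Asns, which makes asparagine and is a textbook target of the amino acid response factor ATF4, had a signal of 8.31 in the WT pool and of 10.50 in the KO pool, 4.56-fold higher. It was the only one of 25 measured members of the amino acid response list past 2-fold. Nupr1 was at 0.63, Psph of serine synthesis at 0.55 and Sesn2 at 0.53, and the median was 0.11, or 1.07 with all-spot centring. The promoter of Asns is shown because it holds a match to the element bound by ATF4, searched as TGATGNAA and given in capitals. The 150 bases lie at chr6:7693210-7693359 on the minus strand (RefSeq, GRCm38.p6).
Asns: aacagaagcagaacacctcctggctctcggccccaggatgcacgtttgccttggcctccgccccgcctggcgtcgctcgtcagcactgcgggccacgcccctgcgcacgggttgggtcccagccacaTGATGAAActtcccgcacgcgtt
The match runs from -23 to -16 relative to the start of this RefSeq transcript, and 3.97% of all promoter windows held one.

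Chaperones of the endoplasmic reticulum, the compartment from which CREBH is released, differed little but in 1 direction. All 29 measured members of the list lay at or above 0, with a median of 0.24, or 1.28 with all-spot centring, and none was 2-fold higher. Derl3, of the degradation channel, was at 0.86, Creld2 and the main chaperone Hspa5 at 0.67 each and Herpud1 at 0.63. Over all measured genes 53.1% lay above 0.

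**Figure D3:**
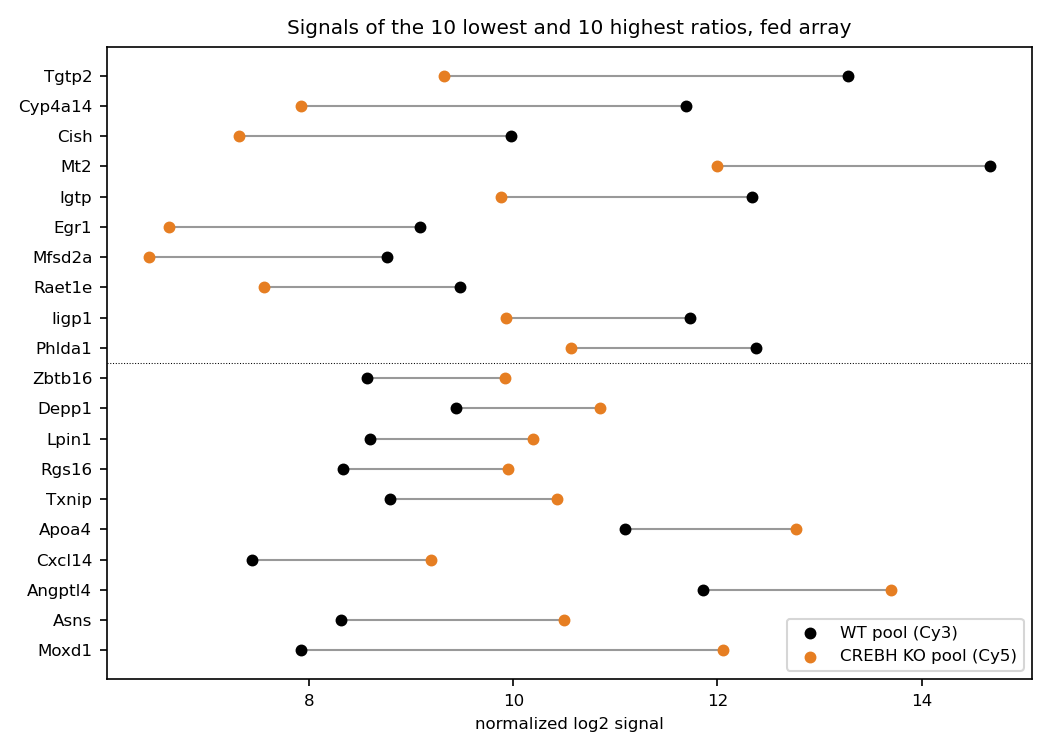
Normalized log2 signal in the WT pool (black) and the KO pool (orange) for the 10 lowest and 10 highest ratios of the fed array, each line joining the pools of 1 gene. Igtp keeps a KO signal of 9.88 although it is 5.51-fold lower, while the KO signals of Egr1 (6.63) and Mfsd2a (6.43) are close to background.

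Moxd1, a monooxygenase-like protein of the secretory pathway, had the highest ratio, with a signal of 7.92 in the WT pool and of 12.05 in the KO pool, 17.6-fold higher. Its median spot signal before normalization was 92.5 over a background of 27.0 in the WT channel and 5516 over 70.0 in the KO channel. The scanner-processed log2 ratio was 4.81 in place of 4.13, and on the fasted array the ratio was 2.19. Cxcl14, a chemokine, was at 7.44 and 9.19 (3.35-fold), and at 1.05 when fasted. The other higher genes were dim in the WT pool: Ntrk2, a neurotrophin receptor (7.22 and 8.42), Abcb1b, a drug efflux pump (7.36 and 8.52), and Sprr1a, of the cornified envelope (7.11 and 8.26), had ratios of 1.20, 1.17 and 1.15. Their scanner-processed ratios were 2.11, 1.73 and 1.76.

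Among lower genes outside the groups above, Raet1e, a stress ligand of the receptor NKG2D, had a signal of 9.48 in the WT pool and of 7.56 in the KO pool, 3.78-fold lower. Serinc2 was at -1.60, with its other probes at -1.41 and -0.82 and a scanner-processed ratio of -2.36. Aqp8, a water channel of the hepatocyte, was bright in both pools (14.17 and 12.66, log2 -1.51), and its other probe was just under 2-fold at -1.0. The forkhead gene Foxq1 was at -1.44, the heparan sulfate proteoglycan gene Sdc4 at -1.21, the calcium-binding gene Cib3 at -1.18, the inhibitor of differentiation Id3 at -1.04 and the reticulon gene Rtn4 at -1.02. Gm4956 (-1.20) and Gm4952 (-1.03) carry no descriptive name.

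Some genes were above background in 1 pool only and have a bound. In all, 154 genes were measured in the WT channel only and 609 in the KO channel only, and 5 genes had a bound of at least 2-fold. Gm4841, a further interferon-inducible GTPase-like gene, had a signal of 9.05 in the WT pool, and its KO signal was lower by at least 7.83-fold. The ubiquitin-like gene Ubd, which interferon gamma induces, was at least 2.03-fold lower. Ctse, a cathepsin, was at least 2.21-fold and Tmeff2 at least 2.02-fold higher. These bounds are open to dye bias.

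Several broad gene classes of liver lay close to equal signals. None of 52 measured ribosomal protein genes was 2-fold apart (median 0.03), nor any of 49 genes of the respiratory chain (-0.07), 41 of complement and coagulation (-0.09), 27 cytochromes P450 of families 1 to 3 (-0.13), 24 acute-phase genes (-0.06) or 23 genes of conjugation and the NRF2 response (0.04). With all-spot centring these medians lay between 1.11 and 1.29, above the 0.78 of all genes. In the acute-phase list Hamp2 was at -0.83 and Lcn2 at -0.68. Cell cycle genes lay above 0 for 20 of 21 members (95.2%, against 53.1% of all measured genes), with a median of 0.13 (0.91 with that centring) and Cdc20 and Birc5 at 0.72.

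Several lower genes lay next to each other in the gene order. Tgtp2 and Ifi47, Igtp and Irgm2, H2-DMb1 and Psmb9, and Mt2 and Mt1 were adjacent pairs. H2-Ab1, H2-Aa and H2-Eb1 followed each other, as did Cyp4a14, Cyp4a10 and Cyp4a31. Some of these neighbours are close copies of each other, and their probes may share signal.

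The fed ratios were set beside those of the fasted array for the 63 genes, all of which were measured on both. On the fasted array as a whole 0.359% of measured genes were 2-fold higher in KO and 0.432% were 2-fold lower. Of the 18 genes higher when fed, 3 were at least 2-fold higher when fasted (Moxd1, Asns and Cxcl14), 2 at least 2-fold lower (Apoa4 and Sprr1a) and 13 under 2-fold, with a median of 0.38. Of the 45 lower genes, 3 were at least 2-fold lower when fasted (Mt2, Mfsd2a and Gadd45g), 1 at least 2-fold higher (Cyp4a14) and 41 under 2-fold, with a median of -0.06. The 20 lower interferon and MHC genes ranged from -0.84 (Ifi47) to 0.62 (H2-Ab1) on the fasted array, with a median of 0.08 against -1.37 when fed, and none was 2-fold lower there. Fed and fasted ratios come from different pools of mice, and their difference was not tested.

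**Figure D4:**
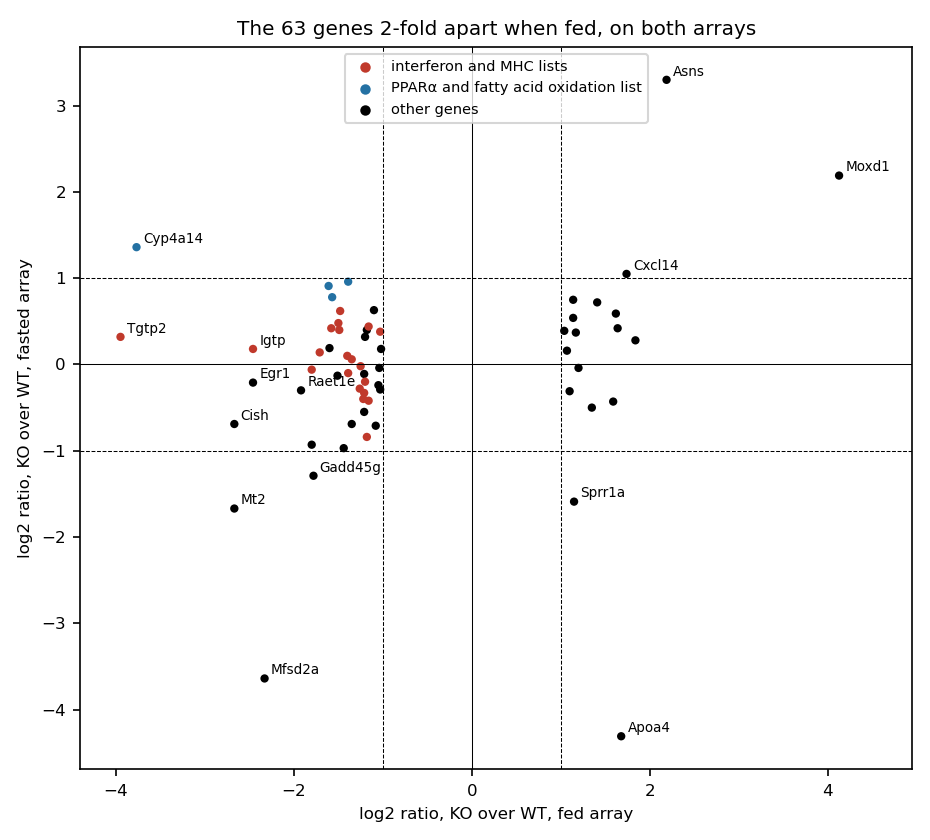
Log2 ratio of KO over WT on the fed array (horizontal) and on the fasted array (vertical) for the 63 genes at least 2-fold apart when fed, with dashed lines at 2-fold. The 20 interferon and MHC genes lie between -0.84 and 0.62 on the fasted axis, Mfsd2a and Mt2 lie low on both and Apoa4 is high fed and low fasted.

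The sizes depended on how the signals were scaled. Scanner-processed signals, which lack the offset that draws dim genes towards 0, gave 62 higher and 112 lower genes, and all-spot centring gave 3102 higher and 9 lower. All 63 called genes kept their direction in each of these settings, which rescale the same spots. With all-spot centring 27 of them stayed 2-fold apart, and some lower genes came close to 0, such as Id3 and Mt1 at -0.05 each.

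**Figure D5:**
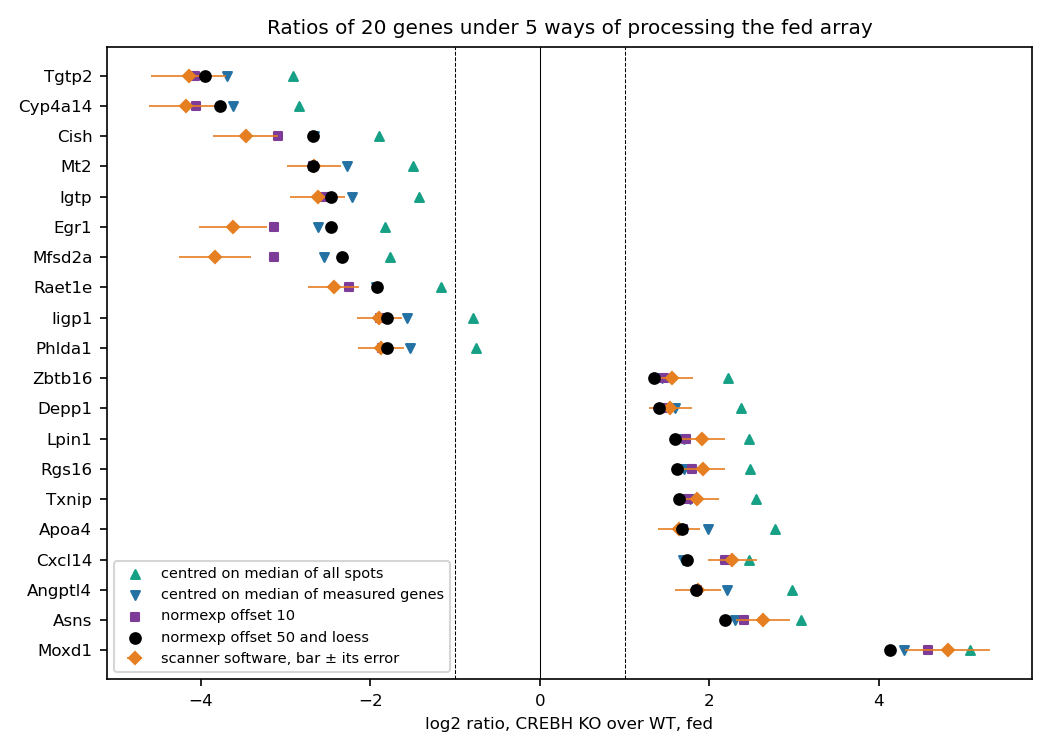
Log2 ratio of KO over WT (horizontal) of the 10 lowest and 10 highest genes of the fed array under 5 ways of processing, with the error of the scanner software as bars and dashed lines at 2-fold. Scanner-processed ratios are further from 0 for genes dim in the KO pool such as Mfsd2a (-3.83 in place of -2.33), and all-spot centring moves every gene upwards.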

How the data were processed

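Total RNA from pooled mouse liver was hybridised to 2-colour arrays, WT in Cy3 and KO in Cy5, per the labels' protocols. Per the file headers, the authors deposited scanner files made with Agilent Feature Extraction (version 10.10.1.1): spot and local background intensity without normalization, processed intensity (background-subtracted, detrended and dye-normalized), the log10 ratio of Cy5 over Cy3 with its error, and a p-value of each ratio that rests on the error model of a spot and was not used. The deposited value table holds log2 ratios, which differed from the scanner ratios by at most 0.005 and had a median of 0.00. Whether they were centred further is unknown.

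Median spot signals were background-corrected by normexp with an offset of 50 and normalized by loess in limma 3.58.1 under R 4.3.3. The 3671 control spots had weight 0. The 216 outlier spots of the fed array entered the normalization and were left out when spots were averaged. Channels were scaled between arrays with Aquantile, which leaves ratios as they are. With this offset, ratios of dim genes come out nearer to 0. Median spot signals were 27.0 (Cy3) and 83.0 (Cy5) over backgrounds of 24.0 and 69.0, no gene spot was saturated, and the spike-in ratios of the scanner software had a slope of 0.956 on the expected ones. The number of arrays limits the precision. Run on simulated signals with known ratios, the normalization gave median ratios of the right direction that were nearer to 0 than those simulated.

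Spots of a probe were averaged. RefSeq accessions named 26761 of 55681 probes through the GRCm38.p6 table, for 20283 genes. The brightest probe was taken for the 5405 genes with several. A gene was measured when at least 50% of its spots were well above background in each channel. A bound takes the bright signal over whichever is larger, the dim probe's own signal or that channel's faintest well-above-background signal, for genes with no probe well above background in that channel. No test of a difference between the pools was run. The members, lists and motifs were chosen with earlier results of these data known. Named were Creb3l3 and its family, the genes past 2-fold, bounds, the genes next to the threshold and up to 4 members per list furthest from 0. In lists described in depth the members at the ends of the range were named too, and most others are marked as picked later. Some items are not reported here. Alternatives were other offsets, scalings, filters, probe choices and folds.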

Additional observations from a re-analysis of the deposited data

Results flagged for a closer look

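The KO over WT ratios of 3 genes were at least 2-fold apart in opposite directions on the fed and the fasted array. Apoa4 was at a log2 ratio of 1.68 when fed and of -4.31 when fasted, a difference (fasted minus fed) of -5.99. Cyp4a14 was at -3.77 and 1.36, a difference of 5.13. Sprr1a was at 1.15 and -1.59, a difference of -2.74. This gene was dim, with signals of 7.11 in the fed WT pool and 6.13 in the fasted KO pool. The latter is close to 6.08, the lowest signal well above background in the fed KO channel, so the size of its fasted ratio is not firm. Its fed ratio ranged from 0.96, under 2-fold, to 1.76 over the ways of processing. With 1 pool per group, none of these differences was tested.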

How the results depend on the processing

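The counts of higher and lower genes moved with the scaling, while the called genes kept their direction. The 18 higher genes became 31 with a normexp offset of 10, 62 with scanner-processed signals and with the authors' value table, 76 with the array rescaled to the median of the measured genes, 3102 with all-spot centring and 151 at 1.5-fold. The 45 lower genes became 112 with scanner-processed signals, 113 with the value table, 9 with all-spot centring and 160 at 1.5-fold. The 20 lower interferon and MHC genes became 35 with scanner-processed signals and with the value table, and 2 with all-spot centring. The log2 ratio of Creb3l3 (-0.88) was -0.46 with the array centred on the measured genes and turned to 0.31 with all-spot centring, which shifted the median of all measured genes to 0.78. The stricter filter, no filter and the mean of probes left each of these counts within 1.5 times. Of the 63 called genes, 61 kept their direction and 2-fold size with scanner-processed signals, 52 with centring on the measured genes and 27 with all-spot centring, and all 63 kept their direction in each of these 3. No paired analysis was possible because there was 1 pool per group and no replicate. Pool, genotype and dye cannot be told apart. Signal over background limits dim genes: KO signals near 6.08 have no firm ratio.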

Other observations

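Probes without a gene name were left out above. Of 28919 such probes 6674 were measured on the fed array, 8 of them with a KO signal above the WT signal by 2-fold or more and 7 with one below it by as much. Chosen after their values were seen, the 2 probes for chr19:5771425-5848475 (forward, build mm9 per the file headers) had log2 ratios of 1.56 (signals 8.13 and 9.69) and 1.58 (12.98 and 14.56) when fed and of -1.34 and -2.94 when fasted. The lowest ratio among unnamed probes was -2.14 (12.29 and 10.15), with -1.36 when fasted.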
